A study of Mus musculus with 72 samples.

Results

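Neural precursor cells at day 35 of differentiation were compared with cells of the same population at day 15, by sequencing of chromatin-associated RNA. The comparison took every count file of those days that belonged to a population sampled at both, which gave 11 libraries of the 72 in the series and 5 pairs. The cells were female mouse embryonic stem cells of a Dom/129S x Cast cross, carried towards neural precursors in N2B27 medium with doxycycline at 1 µg per mL throughout, so that the labelled day was also the length of Xist induction. In every population the endogenous promoter of Xist on 1 X chromosome had been replaced by a doxycycline-inducible TetOn promoter, on the 129S allele in iXist-ChrX-Dom and on the Cast allele in iXist-ChrX-Cast. The WT populations were the parental lines themselves, each grown from a clone. The SmcHD1 KO populations were single CRISPR-Cas9 clones, A3 of iXist-ChrX-Dom, and D5 and G6 of iXist-ChrX-Cast. Each population gave 1 library a day, except that G6 at day 35 had 2 of the same replicate number, labelled R1 and R2. The labels do not say what R1 and R2 stand for. They are called runs here and were summed. In the clones the library of day 35 carried another replicate number than that of day 15, so the day and the time course cannot be told apart there, and the WT libraries carried no number. Assigned counts ran from 20987130 in D5 at day 35 to 31216487 in iXist-ChrX-Dom WT at day 15, and reached 56290046 in the summed G6 library. The p-values below measure the spread between these 5 pairs, of which 3 share the iXist-ChrX-Cast genome and 2 the iXist-ChrX-Dom genome.

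Neural precursors first give rise to neurons and later, with prolonged culture in growth factors, to glial cells, and neurons leave the cell cycle while precursors keep dividing. Xist RNA coats the X chromosome that carries it, which becomes the inactive X (Xi), and most of its genes fall silent while the active X (Xa) stays transcribed. SmcHD1, a chromosomal protein of the SMC family, joins the Xi late and is needed for some of its genes to become and remain silent. RNA bound to chromatin is mostly unfinished transcript, so its level follows transcription more closely than that of mature mRNA does, and it was counted here over whole gene bodies.

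Smchd1 (chr17:71344492-71475343 of mm10) was transcribed in every library, as the mutation of the clones does not remove the gene. Its level in RPM, a gene's counts scaled to the same total in every library, went from 516 at day 15 to 413 at day 35 in iXist-ChrX-Dom WT, 373 to 372 in A3, 556 to 404 in iXist-ChrX-Cast WT, 513 to 327 in D5 and 456 to 325 in G6. Within each day both WT libraries lay above every KO clone, by little at day 15 (516 in iXist-ChrX-Dom WT beside 513 in D5). Over both days together the WT and KO libraries overlapped. These counts alone do not check the genotype. The labelled cell type was checked against defining genes. The intermediate filament gene Nes lay between 36.1 and 170 RPM and Vim between 83.7 and 719 RPM in the 10 libraries, counting the summed runs as 1. Pax6, a transcription factor of forebrain and spinal precursors, reached only 9.02 RPM, and Hes5, a Notch effector, only 2.62 RPM. Sox1 and Sox2 were listed at 0 in all libraries, since each lies within a longer transcript of the same strand (Gm5607 and Sox2ot) and reads shared by genes were not assigned. Fibroblast and mesenchymal genes were abundant at either day and are given below beside the glial genes.

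Across all genes the 5 pairs had little in common, and a single gene passed the paired test. This was Mgll (chr6:88724411-88828360), which encodes monoacylglycerol lipase, the enzyme that breaks down an endocannabinoid and frees arachidonic acid. Its level went from 1.48 to 15.1 RPM in iXist-ChrX-Dom WT, from 2.18 to 18.5 in A3, from 4.76 to 48.1 in iXist-ChrX-Cast WT, from 3.29 to 28 in D5 and from 4.88 to 45.4 in G6. All 5 libraries of day 35 lay above all 5 of day 15. The rise was 3.21 on the log2 scale (SE 0.16), with an adjusted p of 0.00581 in edgeR's quasi-likelihood test with the population as a block. That test covered 14316 genes and called 0.00699% of them, while 1772 genes, or 12.4%, had an unadjusted p under 0.05. DESeq2 with the same block called 702 genes, 311 higher and 391 lower at day 35, or 4.90%. Leaving out the pair of iXist-ChrX-Dom WT, of iXist-ChrX-Cast WT, of D5 or of G6 left no gene with an adjusted p under 0.05 in edgeR, and without A3 there was 1.

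Genes that differed in the same direction in every pair were few. Of the 14316 genes tested, 1022 were higher at day 35 in 5 of 5 populations, which is 7.14%, and 962 were lower in 5 of 5, which is 6.72%. Scaled by library totals in place of TMM factors, these shares were 5.52% and 8.03%. The genes named next were chosen after their values were seen, as the 10 with the smallest p in each direction. Cpeb1, which controls polyadenylation of stored mRNAs, went from 26.7 to 76.7 RPM in iXist-ChrX-Dom WT, 24.0 to 101 in A3, 37.1 to 104 in iXist-ChrX-Cast WT, 42.5 to 146 in D5 and 47.1 to 177 in G6. Its days did not overlap, and its adjusted p was 0.0849 in edgeR and 5.27e-16 in DESeq2. Glis3, a zinc finger transcription factor, was between 149 and 274 RPM at day 15 and between 370 and 565 RPM at day 35. Sim1, a transcription factor of hypothalamic and spinal neurons, was between 4.33 and 23.8 RPM at day 15 and between 0.439 and 2.20 RPM at day 35. Zfp711, an X-linked zinc finger gene, was between 27.3 and 38.8 RPM at day 15 and between 2.74 and 12.9 RPM at day 35. The others were 2210408F21Rik, Tspan4, Ston1, Npr3, AB041803, Vgll3 and Synj2 among the higher genes, and Clcn1, Agbl4, Rps2, Rpl17, Spock3, Gabra2, March11 and Slit1 among the lower.

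The day differences were more alike within a line than between lines. The pair differences of the 14316 genes correlated within iXist-ChrX-Dom (r = 0.60 between WT and A3) and within iXist-ChrX-Cast (r = 0.59 between WT and D5, 0.38 between WT and G6, 0.74 between D5 and G6). Between lines r ran from -0.50 for A3 and G6 to 0.10 for the WT populations. These correlations are across genes, which share libraries and are not replicates, and are a description. Of all genes tested 26.1% differed one way in both iXist-ChrX-Dom populations and the other way in all 3 iXist-ChrX-Cast populations. In the test of day by line, edgeR called 0 genes, with a smallest adjusted p of 0.0593 and 4590 genes (32.1%) under an unadjusted p of 0.05, and DESeq2 called 3264 (22.8%). In the test of day by genotype, edgeR called 0 genes with 101 (0.706%) under an unadjusted p of 0.05, and DESeq2 called 3. When the day difference was averaged over the lines with the line term in the fit, a setting chosen after seeing the data, edgeR called 6 genes. These were Mgll, which was higher, and Zfp711, Nnat, Tmem178b, Rbfox3 and Scn3a, which were lower. Nnat and Scn3a, an imprinted membrane protein gene and a sodium channel gene, are transcribed in developing neurons.

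The median member of both neuronal lists was lower at day 35 than at day 15, but the summed level of each list was higher in iXist-ChrX-Cast, and no member passed the adjusted threshold of edgeR. Of 39 proneural and early neuronal genes 21 had enough counts to be tested, a filter that a gene could pass through 1 day alone, so that counts over tested members are a description of those members. Among them 5 were lower in 5 of 5 populations (Rbfox3, Elavl4, Dll1, Elavl3 and Elavl2), against 6.72% of all genes, and 0 were higher in all. DESeq2 called 9 of the 21 lower and 0 higher, against 2.73% and 2.17% of all genes. The median log2 difference was -1.62, beside 0.01 over all genes tested, and by population the medians were -2.06 in iXist-ChrX-Dom WT, -1.14 in A3, -0.03 in iXist-ChrX-Cast WT, -0.84 in D5 and -1.86 in G6. Of 22 tested genes of mature neurons 6 were lower in all populations (Mapt, Gad2, Syn2, Snap25, Cntnap2 and Kif5c) and 0 higher. Their median was -0.99, and DESeq2 called 5 lower and 0 higher. Without G6 this median was -0.58, and in the WT populations alone, a setting chosen after seeing the data, it was -0.55.

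**Figure D1:**
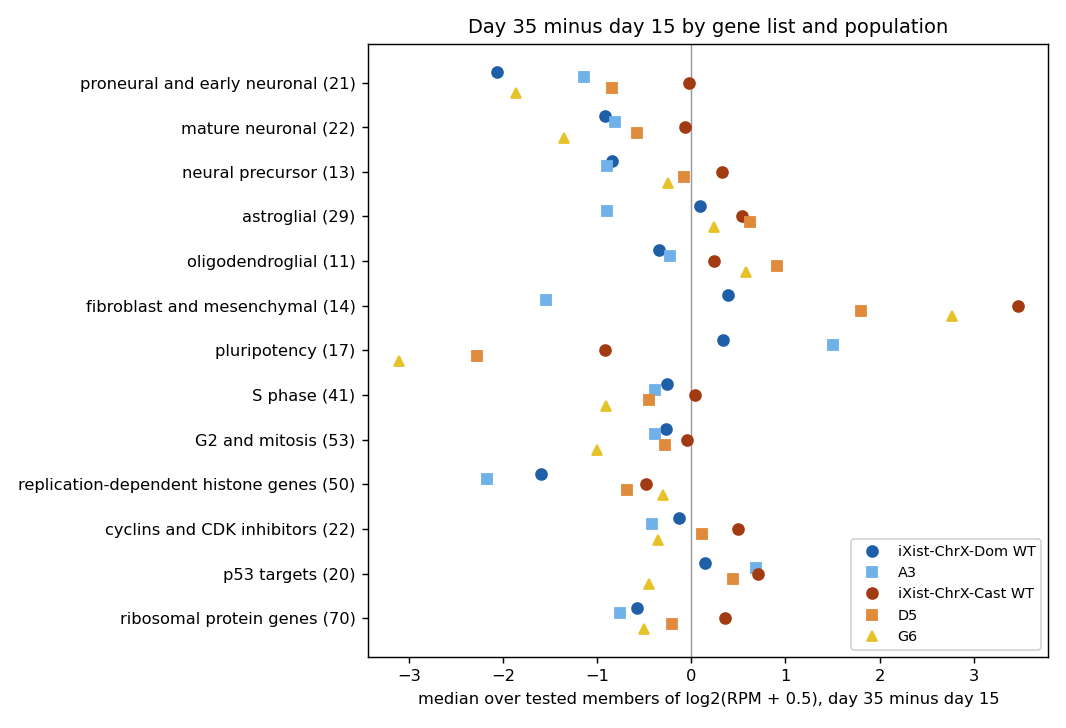
Median difference between day 35 and day 15 over the tested members of each gene list (number in brackets), on the scale of log2(RPM + 0.5), with 1 point for each population. Points left of 0 are lower at day 35; both neuronal lists lie at or left of 0 in all 5 populations, while the mesenchymal and pluripotency lists spread to either side.

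Since no list had a member past the threshold, the members described singly here and below were chosen after their values were seen, apart from 29 genes that were set by name. Rbfox3 (chr11:118489759-118911597), which encodes the neuronal splicing factor NeuN, went from 14.2 to 1.75 RPM in iXist-ChrX-Dom WT, 17.5 to 1.61 in A3, 3.95 to 0.956 in iXist-ChrX-Cast WT, 2.23 to 0.537 in D5 and 2.74 to 0.684 in G6. Every day 35 value lay below every day 15 value, and the log2 difference was -2.52 (SE 0.34, adjusted p = 0.166 in edgeR and 2.55e-09 in DESeq2). Elavl4, an RNA-binding protein of postmitotic neurons, went from 107 to 22 RPM, 48.9 to 21.9, 39.3 to 16, 44.3 to 10.1 and 44.7 to 4.64 in the same order. It too had no overlap between the days (adjusted p = 0.192 in edgeR and 4.37e-06 in DESeq2). Mapt, the gene of the microtubule protein tau, went from 10.5 to 1.97 RPM, 8.31 to 4.55, 3.35 to 1.16, 2.34 to 0.635 and 3.70 to 0.791. Gad2, which makes the transmitter GABA, went from 13 to 3.06 RPM, 6.59 to 2.26, 5.64 to 1.91, 2.04 to 0.732 and 3.53 to 0.278. The days overlapped for both, since A3 at day 35 exceeded every iXist-ChrX-Cast library of day 15 for Mapt, and D5 had the lowest day 15 level of Gad2, below both iXist-ChrX-Dom libraries of day 35.

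Summed over all counted members, tested or not, the neuronal lists differed by line. The proneural sum went from 3155 to 1642 RPM in iXist-ChrX-Dom WT and from 3783 to 591 in A3, but from 972 to 1791 in iXist-ChrX-Cast WT, from 3264 to 5594 in D5 and from 1686 to 8803 in G6. Most of it was Ebf1, a transcription factor of early neurons and also of mesenchymal and B cells, which went from 1053 to 6757 RPM in G6 and from 2156 to 319 in A3. The mature neuronal sum went from 1535 to 784 RPM, 1323 to 649, 456 to 742, 589 to 1529 and 822 to 1546, with Map2, a dendritic microtubule protein, as one of its main members. Both sums were lower at day 35 in iXist-ChrX-Dom and higher in all 3 iXist-ChrX-Cast populations, which the medians do not show.

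Single genes differed by line too. Dcx, a microtubule protein of migrating young neurons, went from 118 to 1.03 RPM in iXist-ChrX-Dom WT and from 56.6 to 0.752 in A3. In iXist-ChrX-Cast WT it went from 0.645 to 9.02, in D5 from 3.55 to 1.17 and in G6 from 8.58 to 3.31. It was thus high only in the day 15 libraries of iXist-ChrX-Dom, and iXist-ChrX-Cast WT differed the other way. Tubb3, a neuronal tubulin, was between 0.945 and 17.3 RPM at day 15 and between 0.342 and 8.42 RPM at day 35, and was higher at day 35 in iXist-ChrX-Cast WT and D5. The proneural factor Neurog2 stayed at or under 0.739 RPM in all 10 libraries. Of 13 tested precursor genes Msi1 and Sox11 were lower in 5 of 5 populations, against 6.72% of all genes, and 0 were higher. They encode an RNA-binding protein and a transcription factor of precursors and newborn neurons. Pax6, Fabp7 and Notch1 were lower in both iXist-ChrX-Dom and higher in all 3 iXist-ChrX-Cast populations, and 1 gene differed the other way by line. Of all genes tested 13.6% and 12.5% did so.

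The astroglial list had a median difference above 0 in every population but A3, and no member passed edgeR's adjusted threshold. The defining genes of astrocytes and oligodendrocytes were near 0 at either day. Of 29 tested astroglial genes 3 were higher at day 35 in 5 of 5 populations (Cst3, Slc1a3 and Sparc), against 7.14% of all genes, and 0 were lower in all. DESeq2 called Nfix, Sparc and Cst3 higher and none lower, against 2.17% and 2.73% of all genes. The list's median was -0.03, and over the iXist-ChrX-Cast populations alone, a setting chosen after seeing the data, it was 0.77. Slc1a3 (chr15:8634123-8710807), the glutamate transporter of radial glia and astrocytes, went from 87.7 to 141 RPM in iXist-ChrX-Dom WT, 86.8 to 90.0 in A3, 60.7 to 89.8 in iXist-ChrX-Cast WT, 87.0 to 174 in D5 and 103 to 208 in G6. The pair of A3 differed least. The gliogenic factors Nfia and Nfib were among 5 tested members higher at day 35 in all 3 iXist-ChrX-Cast and lower in both iXist-ChrX-Dom populations. Another 4 members differed the other way by line. Of all genes tested 13.6% and 12.5% did so. Gfap and Aqp4, the filament protein and water channel of astrocytes, reached at most 0.168 and 0.564 RPM, S100b 2.44 RPM, and the oligodendroglial factors Olig2 and Sox10 0.462 and 0.130 RPM. Of 11 tested oligodendroglial genes 0 were higher and 0 lower in 5 of 5, and edgeR and DESeq2 called 0 of them.

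Genes of fibroblasts and mesenchyme were higher at day 35 in iXist-ChrX-Cast, the line in which more of the astroglial genes were higher. The summed level of all 15 genes, tested or not, went from 2679 to 2808 RPM in iXist-ChrX-Dom WT and from 6089 to 1846 in A3. The same sum went from 576 to 13782 in iXist-ChrX-Cast WT, from 3598 to 21391 in D5 and from 1990 to 23981 in G6. Col3a1, a fibrillar collagen, made up most of it. Col1a1 (chr11:94936269-94951856), the main collagen of connective tissue, was the member higher in 5 of 5 populations, going from 50.9 to 247 RPM, 185 to 217, 21.5 to 2294, 257 to 2739 and 102 to 1609. Its 3 highest values were those of iXist-ChrX-Cast at day 35 (log2 difference 3.28, SE 0.96, adjusted p = 0.291 in edgeR and 0.000205 in DESeq2). Embryonic stem cells of these lines were kept on feeder fibroblasts, which were removed by pre-plating before differentiation. Summed over the list, the Cast share of allelic fragments lay between 0.465 and 0.549 in all 10 libraries. Single members departed from that, such as Col1a1 at 0.713 in iXist-ChrX-Cast WT at day 15. Whether feeder cells added to this RNA was not tested. In bulk RNA a change in the number of cells of a type and a change in RNA per cell cannot be told apart, and the part of these genes in the astroglial differences was not tested.

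Genes of pluripotent cells differed by line in the other direction. Their median over 17 tested genes was 0.33 in iXist-ChrX-Dom WT, 1.51 in A3, -0.92 in iXist-ChrX-Cast WT, -2.28 in D5 and -3.10 in G6. Esrrb, an orphan nuclear receptor of naive stem cells, went from 11.8 to 14.7 RPM and from 5.51 to 16.6 in iXist-ChrX-Dom WT and A3, and from 18.2 to 0.790, 16.9 to 0.391 and 14.1 to 0.428 in iXist-ChrX-Cast WT, D5 and G6. The 3 iXist-ChrX-Cast libraries of day 35 were the lowest of the 10, and the test of day by line gave a log2 difference of -5.92 (adjusted p = 0.0617 in edgeR and 1.82e-17 in DESeq2). Pou5f1, the Oct4 gene, was at 12.8 RPM in iXist-ChrX-Dom WT and 7.77 RPM in A3 at day 35, and at 0.0214 RPM in G6.

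**Figure D2:**
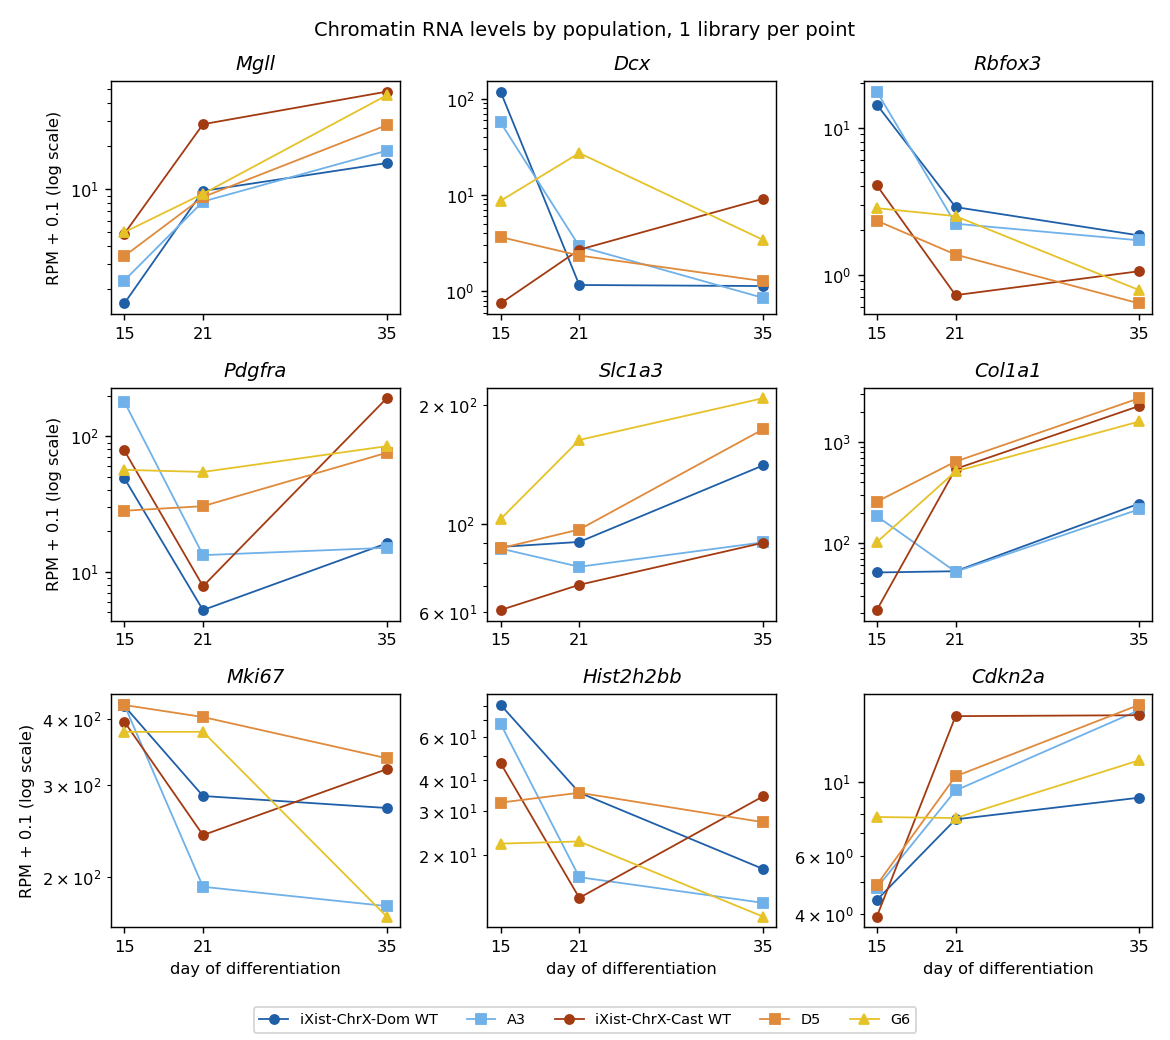
Levels of 9 genes at days 15, 21 and 35 in RPM + 0.1 on log axes that differ between panels, with 1 library a point and 1 line for each population. Mgll lies higher at day 35 than at day 15 in all 5 populations, Dcx is high in iXist-ChrX-Dom at day 15, and Col1a1 climbs most in the 3 iXist-ChrX-Cast populations.

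Of the cell cycle genes, 12 of 41 in S phase and 22 of 53 in G2 and mitosis were lower at day 35 in 5 of 5 populations, where 6.72% of all genes were, and no member passed edgeR's adjusted threshold. The promoters of 4 genes that were lower throughout are shown for the motifs that their lists share. They are those of the 2 histone genes and the 2 genes of G2 and mitosis with the highest mean level at day 15 among members that were lower in 5 of 5 populations, a choice made after values were seen, where the promoter's start site lies at the counted gene's 5′ end. Each sequence is from RefSeq (GRCm38.p6), runs 5′ to 3′ on the strand of the gene over 250 bases before and 50 after its start, and has 3 kinds of motif in capitals. These are CCAAT, the site of the factor NF-Y, TTTGAA, the cell cycle homology region (CHR) bound by the DREAM complex, and TATAAA, the TATA box, on either strand.
Hist2h2bb (chr3:96269450-96269749, plus strand): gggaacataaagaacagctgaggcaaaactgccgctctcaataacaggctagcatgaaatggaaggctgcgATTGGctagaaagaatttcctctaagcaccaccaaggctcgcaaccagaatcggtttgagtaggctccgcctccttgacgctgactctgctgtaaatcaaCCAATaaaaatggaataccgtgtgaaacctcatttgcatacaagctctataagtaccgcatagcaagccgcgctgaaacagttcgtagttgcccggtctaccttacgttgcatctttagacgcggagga
Hist1h1a (chr13:23763418-23763717, plus strand): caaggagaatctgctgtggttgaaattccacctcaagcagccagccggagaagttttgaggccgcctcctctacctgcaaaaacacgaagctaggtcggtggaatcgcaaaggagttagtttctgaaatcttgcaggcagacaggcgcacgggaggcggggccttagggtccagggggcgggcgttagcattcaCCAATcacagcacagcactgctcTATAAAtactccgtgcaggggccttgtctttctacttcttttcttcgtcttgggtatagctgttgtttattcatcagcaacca
Mki67 (chr7:135716330-135716629, minus strand): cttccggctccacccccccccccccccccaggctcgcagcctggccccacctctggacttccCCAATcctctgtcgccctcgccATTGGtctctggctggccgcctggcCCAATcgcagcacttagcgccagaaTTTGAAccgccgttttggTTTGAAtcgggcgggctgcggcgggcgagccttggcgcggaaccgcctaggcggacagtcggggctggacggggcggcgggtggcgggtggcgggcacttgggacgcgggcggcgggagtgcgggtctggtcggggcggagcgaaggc
Cbx5 (chr15:103239803-103240102, minus strand): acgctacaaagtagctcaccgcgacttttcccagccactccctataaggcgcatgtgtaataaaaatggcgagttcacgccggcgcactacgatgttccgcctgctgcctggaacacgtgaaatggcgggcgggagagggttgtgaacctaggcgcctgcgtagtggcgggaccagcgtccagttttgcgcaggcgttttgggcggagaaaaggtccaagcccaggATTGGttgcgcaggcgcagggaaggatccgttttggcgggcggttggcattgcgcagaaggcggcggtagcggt
Hist2h2bb and Hist1h1a encode a core histone and a linker histone, and Mki67 encodes the Ki-67 protein of dividing cells. Cbx5 encodes the heterochromatin protein HP1 alpha. Of the 45 tested histone genes with a promoter, 82.2% held CCAAT, 46.7% TTTGAA and 62.2% TATAAA. Of 48 genes of G2 and mitosis 77.1%, 66.7% and 4.17% did, and of 29 S phase genes 72.4%, 17.2% and 10.3%. Over all 32851 promoters of that length the shares were 37.4%, 17.9% and 13.6%. A match is a run of letters and not a shown binding site, and these windows overlap where histone genes lie close together.

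Of the 53 genes of G2 and mitosis 22 were lower in 5 of 5 populations (against 6.72% of all genes) and 0 were higher. edgeR gave 18 of them an unadjusted p under 0.05, all lower, where 6.32% of all genes were lower and 6.06% higher at that p. DESeq2 called 5 lower, against 2.73% of all genes, namely Kif11, Hmgb2, Cenpf, Cenpe and Mki67. The median log2 difference was -0.42, and by population -0.27 in iXist-ChrX-Dom WT, -0.38 in A3, -0.04 in iXist-ChrX-Cast WT, -0.28 in D5 and -1.0 in G6. Mki67 (chr7:135689787-135716379) went from 424 to 271 RPM, 427 to 176, 396 to 321, 426 to 337 and 379 to 168 in the same order. Each day 35 value lay below all day 15 values, and the log2 difference was -0.75 (SE 0.20, adjusted p = 0.266 in edgeR and 0.0306 in DESeq2). Kif11, the motor that separates spindle poles, went from 124 to 85.8 RPM, 104 to 69.2, 118 to 87.4, 106 to 69.8 and 98.4 to 49.1, again without overlap. Top2a and Ccnb1, which act in chromosome untangling and in entry to mitosis, were lower in 4 of 5 populations and higher in iXist-ChrX-Cast WT. Cbx5 was between 280 and 339 RPM at day 15 and between 176 and 291 RPM at day 35, so its days overlapped.

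Of the 41 S phase genes 12 were lower in 5 of 5 populations (6.72% of all genes) and 0 higher, 9 had an unadjusted p under 0.05 in edgeR and all of these were lower (6.32% of all genes), and DESeq2 called Dtl, Nasp, Pola1 and Brip1 lower (2.73% of all genes). The median was -0.40 over the list and 0.04 in iXist-ChrX-Cast WT. Without G6 it was -0.25, and in the WT populations alone it was -0.08, where that of G2 and mitosis was -0.15. Brip1 (chr11:86058135-86201193), a helicase of DNA repair, went from 145 to 89.6 RPM, 107 to 68.5, 143 to 77.7, 187 to 94.0 and 129 to 61.5. No day 35 library reached the lowest of day 15 (log2 difference -0.86, SE 0.13, adjusted p = 0.170 in edgeR and 0.000108 in DESeq2). Mcm5, a subunit of the replicative helicase, was between 75.7 and 119 RPM at day 15 and between 28.5 and 95.2 RPM at day 35. Pcna, the sliding clamp of the polymerases, was lower in 4 populations, while in iXist-ChrX-Cast WT it went from 51.0 to 81.9 RPM. G6 differed most in both cell cycle lists, and its TMM factor at day 35 was 0.831, the lowest of the 10 libraries.

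Replication-dependent histone genes, a group chosen after their values were seen, had a median log2 difference of -1.34. Of 59 genes 50 were tested, of which 36 were lower in 5 of 5 populations (6.72% of all genes) and 0 higher. edgeR gave 39 an unadjusted p under 0.05 (6.32% of all genes) and DESeq2 called 21 (2.73%), all lower. By population the medians were -1.60 in iXist-ChrX-Dom WT, -2.17 in A3, -0.48 in iXist-ChrX-Cast WT, -0.69 in D5 and -0.30 in G6, so the order of the populations differed from that in the G2 and mitosis list, where G6 was lowest. Hist2h2bb went from 80.8 to 17.4 RPM, 67.7 to 12.7, 46.9 to 34.4, 32.4 to 27 and 22.1 to 11.1. Hist1h1a went from 67.7 to 22.6 RPM, 54.0 to 15.8, 35.8 to 19.4, 23.6 to 18.3 and 17 to 5.94. Both were highest at day 15 in iXist-ChrX-Dom and their days overlapped between lines. Many histone genes are near-identical copies, and single members are uncertain for that reason. Of 70 tested ribosomal protein genes, also chosen after values were seen, 13 were lower in all populations, beside 6.72% of all genes, and 0 higher, with a median of -0.33.

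Cyclins and their inhibitors were read against the 7.14% of all genes higher and the 6.72% lower in 5 of 5 populations. Of 22 tested cyclins and inhibitors Cdkn2b, Cdkn2a and Ccnd2 were higher in 5 of 5 populations and Rbl1 and E2f2 lower. Cdkn2a (chr4:89274472-89294619), which encodes proteins that hold cells in G1 or activate p53, went from 4.31 to 8.87 RPM in iXist-ChrX-Dom WT, 4.69 to 16.4 in A3, 3.83 to 15.8 in iXist-ChrX-Cast WT, 4.80 to 17 in D5 and 7.74 to 11.5 in G6. The days did not overlap, and the adjusted p was 0.217 in edgeR and 0.000456 in DESeq2. Cdkn2b (chr4:89306288-89311032), its neighbour and a gene of the same inhibitor family, went from 1.91 to 5.25 RPM, 1.24 to 8.06, 1.05 to 22.1, 2.19 to 18.4 and 3.66 to 11.5, also without overlap. Cdkn1a, an inhibitor activated by p53, was higher in 4 populations and went from 28.7 to 9.90 RPM in G6. Ccnd2, a cyclin of G1, was between 47.0 and 126 RPM at day 15 and between 98.1 and 559 RPM at day 35, and the smallest difference was that of G6.

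In the remaining lists the counts stand beside the 7.14% of all genes that were higher and the 6.72% that were lower in 5 of 5 populations. Of 20 genes activated by p53, Tnfrsf10b and Phlda3 were higher in 5 of 5 populations, and 0 were lower in all. Of 22 Notch genes the ligand Dll1, the regulator Dtx1 and the glycosyltransferase Mfng were lower in all. Dll1, which newborn neurons show to their neighbours, went from 17.9 to 3.90 RPM, 10.3 to 5.77, 8.39 to 6.11, 4.99 to 1.27 and 4.42 to 0.684. Of 16 immediate early genes Jun, Ier2, Dusp1 and Jund were lower in all, and Jun went from 29.8 to 3.19 RPM, 23.2 to 3.40, 24.7 to 12.2, 15.2 to 7.57 and 9.43 to 2.67. Of 20 genes of the EGF and FGF pathways, whose ligands were in the medium, 0 were higher and 0 lower in all. Of 19 genes of midbrain, hindbrain and spinal identity Hoxc6 and Hoxc4 were higher in all and Pax5 lower. Of 7 tested endothelial genes Cdh5 was lower in all, and 2 genes of microglia and immune cells were tested, of which 0 differed alike in all populations. Of 6 tested neural crest genes the transcription factors Ets1 and Mitf were higher in all, and of 4 forebrain genes and 7 genes of endoderm and muscle 0 differed in 1 direction throughout.

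Silencing of the X was read from fragments that carry a variant of either genome, as the ratio Xi/(Xi + Xa), for 246 genes in iXist-ChrX-Dom and 399 in iXist-ChrX-Cast, in libraries with at least 10 such fragments for the gene. The median ratio went from 0.00464 to 0.00489 in iXist-ChrX-Dom WT, 0.0143 to 0.0293 in A3, 0.00472 to 0.00160 in iXist-ChrX-Cast WT, 0.0160 to 0.0175 in D5 and 0.0165 to 0.00854 in G6. All clones lay above their WT at either day, and the mean difference between the days was 0.00113 ± 0.00857 (SD, n = 5, two-sided exact permutation of signs, p = 0.8125, where 5 pairs cannot give less than 0.0625). Genes with a ratio over 0.1, a count chosen after values were seen, were more numerous at day 35 in each population, 43 after 15 in iXist-ChrX-Dom WT, 76 after 49 in A3, 18 after 12 in iXist-ChrX-Cast WT, 75 after 62 in D5 and 52 after 45 in G6. The number of genes with enough fragments differed too, such as 373 after 398 in D5. Past 20 Mb of the X, iXist-ChrX-Dom did not gain genes over 0.1, with 13 at both days in WT and 29 after 39 in A3. The mean difference of 16.2 genes had the smallest p that 5 pairs allow in the exact permutation of signs, 0.0625. With run R2 of G6 alone the mean was 14.8, and over genes of both tables it was 11.6, each with p = 0.125 in the same exact test. At day 21 the counts were 16, 31, 14, 48 and 31, below those of day 15 in all 3 clones. The day 21 libraries of the clones carried the replicate number of day 35 and not that of day 15.

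No single ratio passed the test of day over all populations. limma tested 213 genes common to both lines and called 0, with 10 (4.69%) under an unadjusted p of 0.05. Of these genes 7 (3.29%) were lower at day 35 in 5 of 5 pairs and 4 (1.88%) higher. Among the 5 smallest p-values were those of Slc7a3 and Upf3b, with lower fitted ratios, and of Pqbp1 and Suv39h1, with higher ones. Slc7a3 and Upf3b rested on at most 4 and 6 Xi fragments a library. In iXist-ChrX-Cast WT Slc7a3 had 0 at both days, and so did Pqbp1. Pqbp1 and Suv39h1 start in the first 10 Mb of the X, a stretch described below. Suv39h1 (chrX:8061170-8074760), a histone methyltransferase of heterochromatin, had ratios of 0.055 and 0.160 in iXist-ChrX-Dom WT, 0.203 and 0.321 in A3, 0.015 and 0.036 in iXist-ChrX-Cast WT, 0.102 and 0.179 in D5 and 0.158 and 0.184 in G6, for days 15 and 35. In iXist-ChrX-Cast alone limma tested 367 genes and called 0, with 42 (11.4%) under an unadjusted p of 0.05, and 22.1% were lower and 8.99% higher in 3 of 3 populations. The smallest p-values there were those of BC065397 and Col4a6, which were higher, and Mtm1, Ctps2 and Klhl13, which were lower. Col4a6, Mtm1 and Ctps2 rested on at most 4, 3 and 5 Xi fragments a library.

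BC065397 and Klhl13 gave the clearest values in iXist-ChrX-Cast. BC065397 (chrX:136742956-136803361) went from 0.0218 (Wilson 95% interval 0.0143 to 0.0331) to 0.199 (0.167 to 0.236) in WT, from 0.112 to 0.346 in D5 and from 0.0931 to 0.270 in G6, over 507 to 1553 fragments (difference 0.20, SE 0.02, adjusted p = 0.326 in limma). All 3 day 35 values lay above all 3 of day 15. Klhl13 (chrX:23219270-23365082), an adaptor of a ubiquitin ligase, went from 0.0598 to 0.00270 in WT, from 0.108 to 0.0243 in D5 and from 0.0788 to 0.0126 in G6, without overlap. The intervals here and below cover counting error only.

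In iXist-ChrX-Dom the genes at the centromere-proximal end of the X had higher Xi ratios at day 35, an observation made after values were seen. Over the 34 genes that start in the first 10 Mb the median ratio of WT was 0.00632 at day 15, 0.0531 at day 21 and 0.183 at day 35, and 30 genes exceeded 0.1 at day 35, after 1 at day 15. In A3 it was 0.0205, 0.0263 and 0.321, and 32 genes exceeded 0.1, after 8. The ratio was higher at day 35 for 34 of 34 genes in WT and 32 of 32 in A3 that could be compared. Summed over these genes, 226 of 10839 fragments came from the Xi at day 15 in WT (ratio 0.0209, Wilson 95% interval 0.0183 to 0.0237) and 2534 of 13727 at day 35 (0.185, interval 0.178 to 0.191). In A3 the sums were 462 of 11595 (0.0398, interval 0.0364 to 0.0436) and 4196 of 14591 (0.288, interval 0.280 to 0.295). In RPM of all allelic fragments of a library, Xi fragments of these genes went from 15.1 to 180 in WT and from 32.1 to 318 in A3, while Xa fragments went from 709 to 794 and from 774 to 790. At day 52 the medians were 0.0942 in WT and 0.0351 in A3.

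**Figure D3:**
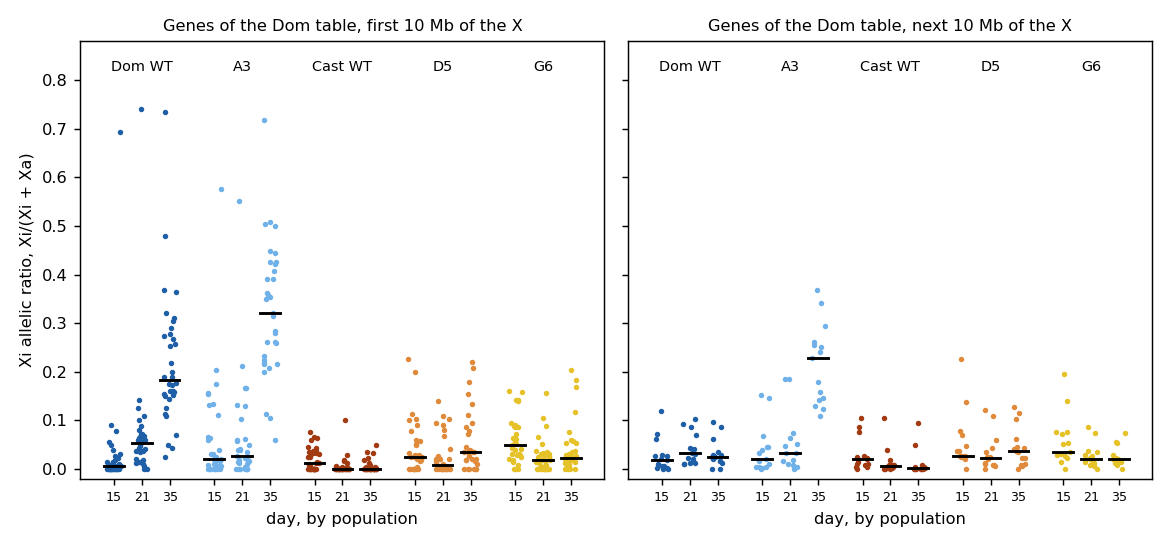
Xi ratio of each gene of the iXist-ChrX-Dom table in the first 10 Mb (left) and the next 10 Mb (right) of the X at days 15, 21 and 35, with a point for each gene and a bar at the median of each library. In the first 10 Mb the bars of iXist-ChrX-Dom WT and A3 at day 35 stand at 0.183 and 0.321, and in the next 10 Mb that of A3 stands at 0.229 and that of WT at 0.0239.

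The same genes stayed low in iXist-ChrX-Cast. Their median went from 0.0125 to 0 in WT, from 0.0256 to 0.0350 in D5 and from 0.0494 to 0.0227 in G6. limma, in a test of day by line added after these values were seen, called 12 of 213 genes, and 11 of them start in the first 10 Mb. These were Plp2, Wdr45, Ccdc22, Xk, Rbm3, Clcn5, Ebp, Ccdc120, Porcn, Tfe3 and Ppp1r3f, all with a larger rise in iXist-ChrX-Dom, and the other was Mtm1, with a difference of -0.0114 that rests on at most 3 Xi fragments a library and on 0 in all 4 libraries of iXist-ChrX-Dom. Rbm3 (chrX:8138974-8145802), an RNA-binding protein induced by cold, went from 0.0223 (Wilson 95% interval 0.0145 to 0.0342) to 0.311 (0.286 to 0.338) in WT and from 0.0313 (0.0211 to 0.0462) to 0.449 (0.421 to 0.478) in A3. At day 35 G6 had 0.0248 for this gene, D5 0.0212 and iXist-ChrX-Cast WT 0.000997. Plp2 (chrX:7668115-7671278), a membrane proteolipid, went from 0.0135 to 0.369 in iXist-ChrX-Dom WT and from 0.111 to 0.508 in A3, over 54 to 122 fragments. Wdr45 (chrX:7722219-7728201), an autophagy protein, went from 0.0395 to 0.480 and from 0 of 67 fragments, which allows a ratio of up to 0.0448, to 0.422. Clcn5 (chrX:7158411-7319358), an endosomal chloride transporter with 3273 to 4186 fragments a library, went from 0.005 to 0.199 and from 0.039 to 0.285. Leaving out the pair of iXist-ChrX-Cast WT or of G6 left 0 calls in the test of day by line and leaving out D5 left 2, while leaving out iXist-ChrX-Dom WT gave 34.

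The stretch ended at different places in the 2 populations. In iXist-ChrX-Dom WT the ratio of Rpgr (start 10158215) was 0.0976 at day 35 after 0.0268, and that of Bcor (start 12036737), a transcriptional corepressor, was 0.0172 after 0.0112. In the second 10 Mb 0 of 15 genes exceeded 0.1 there at day 35. In A3 all 15 of those genes exceeded 0.1, from 2 at day 15, and the median went from 0.0208 to 0.229. Med14, a Mediator subunit, had 0.294 after 0.0172, and Usp9x, a deubiquitinase, 0.158 after 0.0445. Kdm6a (start 18162666), the last of the 15, had 0.179 after 0.152, and the next gene, Chst7 (start 20059569), had 0.0284. Past 20 Mb the medians went from 0.00392 to 0.00324 in WT and from 0.0124 to 0.0159 in A3, where 29 genes exceeded 0.1 at day 35 and 39 at day 15. Dynlt3, a dynein light chain gene within the first stretch, was at 0.514 or above in both iXist-ChrX-Dom populations at days 15, 21, 35 and 52, and Sytl5 next to it had only 0.0256 and 0.0593 at day 35.

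**Figure D4:**
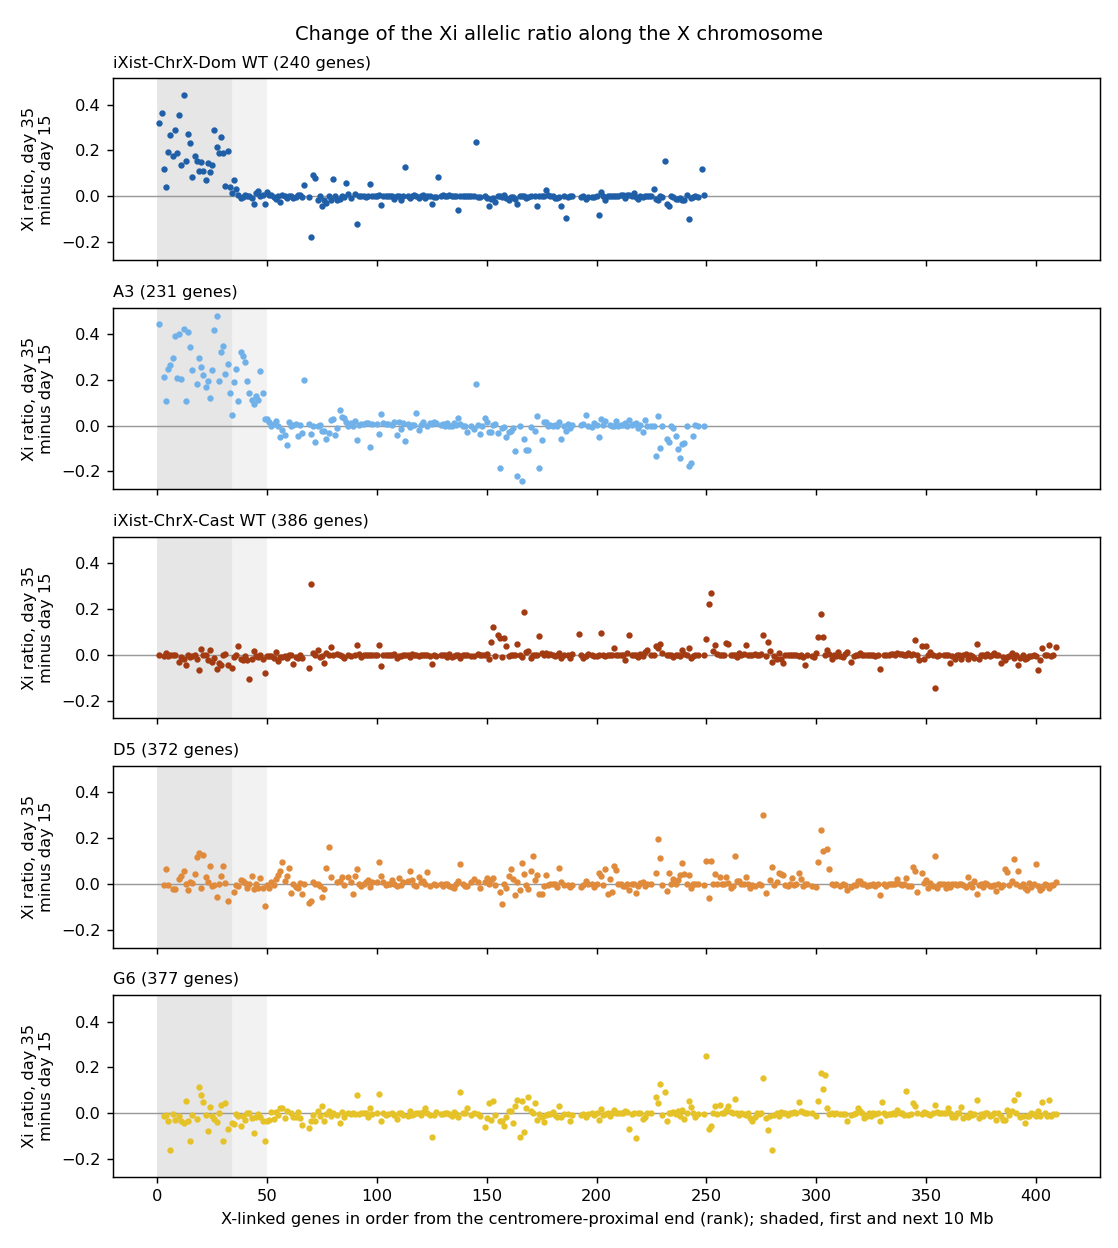
Difference of the Xi ratio between day 35 and day 15 for each X-linked gene, in order of position from the centromere-proximal end, with a panel for each population and shading over the first and the next 10 Mb. In iXist-ChrX-Dom WT the points stand above 0 over the first shaded block and in A3 over both, while in iXist-ChrX-Cast 4 of 31 genes were higher in WT, 16 of 28 in D5 and 8 of 29 in G6 over the first block, and 2, 6 and 0 of 15 over the second.

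Genes known to escape silencing differed in either direction. Of 7 escape genes in the test over 5 populations 0 were lower in all and 1 was higher (3.29% and 1.88% of all ratios). Of 13 in iXist-ChrX-Cast 2 were lower and 4 higher in all 3 populations (22.1% and 8.99% of all ratios). Kdm6a (chrX:18162666-18279358), a demethylase of the Polycomb mark on histones, was 0.062 and 0.028 in iXist-ChrX-Dom WT, 0.152 and 0.179 in A3, 0.087 and 0.008 in iXist-ChrX-Cast WT, 0.226 and 0.128 in D5 and 0.196 and 0.075 in G6, for days 15 and 35. Its ratio was lower at day 35 in all populations but A3. The total level of Kdm6a was lower in 5 of 5 populations, going from 473 to 302 RPM, 468 to 292, 561 to 284, 596 to 297 and 488 to 434 (adjusted p = 0.247 in edgeR and 0.0251 in DESeq2). Eif2s3x, a translation factor gene, had ratios from 0.190 to 0.363 at day 15 and from 0.220 to 0.434 at day 35. Kdm5c, a histone demethylase listed in the iXist-ChrX-Cast table alone, went from 0.129 to 0.166 in WT, 0.224 to 0.241 in D5 and 0.166 to 0.166 in G6.

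Genes whose silencing depends on SmcHD1 had higher ratios in the clones than in WT at both days. This list of 7 was drawn up with results of these data known and is not independent evidence. Of the 6 tested over 5 populations 0 were lower and 0 higher in all, and of 7 in iXist-ChrX-Cast 4 were higher in all 3 and 0 lower (8.99% and 22.1% of all ratios). The median ratio of the 6 went from 0.260 to 0.195 in A3, from 0.168 to 0.228 in D5 and from 0.155 to 0.204 in G6, against 0.0172 to 0.00162 in iXist-ChrX-Dom WT and 0.0243 to 0.0573 in iXist-ChrX-Cast WT. Taf1, a subunit of the general factor TFIID, was 0.234 (Wilson 95% interval 0.207 to 0.263) and 0.153 (0.131 to 0.178) in A3, 0.263 and 0.353 in D5 and 0.263 and 0.275 in G6. Yipf6, a Golgi protein, was 0.267 and 0.237, 0.173 and 0.182, and 0.166 and 0.141 in the same clones, and at most 0.007 in either WT. Igbp1, a regulator of phosphatase 2A, was 0.327 and 0.196 in A3, 0.193 and 0.239 in D5 and 0.139 and 0.211 in G6. limma called 0 of 213 genes in the test of day by genotype, with 1 under an unadjusted p of 0.05.

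Xist (chrX:103460372-103483233) took between 1.82% and 4.96% of all counts in the 10 libraries. In RPM by library totals it went from 37813 to 41751 in iXist-ChrX-Dom WT, from 39753 to 36505 in A3, from 18182 to 49620 in iXist-ChrX-Cast WT, from 21208 to 33991 in D5 and from 25934 to 36783 in G6. The iXist-ChrX-Cast libraries of day 15 were the lowest, and at day 35 the lines overlapped. The mean log2 difference was 0.53 ± 0.60 (SD, n = 5, two-sided exact permutation of signs, p = 0.125).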

How the data were processed

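Chromatin-associated RNA of 11 libraries was used here, 1 for each population and day and both runs of G6 at day 35, with libraries of days 21 and 52 for comparison. The authors deposited raw counts for each gene and library over 22556 gene bodies of mm10, made with Bowtie2 2.3.2 to remove ribosomal RNA, STAR 2.4.2a to align and featureCounts 1.5.2 to count by strand. They also deposited, for each line, a table of X-linked genes with the allelic ratio as a fraction, Xi/(Xi + Xa), from which genes were taken, and allelic counts for each genome, from which the ratios here were computed. In the table of iXist-ChrX-Dom, 26 columns of single samples matched no sample used and were left out. In R 4.3.3, 14316 genes past edgeR's filter on low counts were tested with edgeR 4.0.16 (quasi-likelihood, TMM, population as block), and DESeq2 1.42.0 was the alternative. limma 3.58.1 tested ratios with at least 10 allelic fragments in every library. RPM values are scaled by TMM factors unless said otherwise, pair differences are on log2(RPM + 0.5), which understates changes of low genes, and calls are at a Benjamini-Hochberg adjusted p under 0.05. The statistics were tested on simulated data with known differences. There the dispersion of counts was capped at 0.05 and ratios had counting error alone. The simulation therefore does not check error rates under the spread between real pairs.

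Genes were to be named if past the threshold in all 5 populations with a mean of at least 5 RPM, as called members of a list, or, for ratios, as the 5 smallest p-values of a fit, besides 29 genes set by name. Some genes that this rule names are not reported here. The members and gene lists were chosen with earlier results of these data known. The labels do not say that libraries of a group came from separate cultures, so p-values measure only the spread between these samples. Totals of 20987130 counts and more leave little counting error for genes above 5 RPM. The 2 runs of G6 at day 35 differed by more than sampling noise, with a chi-square per degree of freedom of 33.1 over 14488 genes. They were summed as 1 library.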

Additional observations from a re-analysis of the deposited data

Results flagged for a closer look

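Among the tested members of the 29 genes set by name, 3 had a day difference of opposite sign in every population of the 2 lines. That is a smaller share than the 26.1% of all genes tested. On the log2(RPM + 0.5) scale the mean difference of iXist-ChrX-Cast minus that of iXist-ChrX-Dom was 3.66 for Pdgfra, the receptor of mesenchyme and oligodendrocyte precursors (1.09 against -2.57). It was 2.99 for Pax6 (0.30 against -2.69) and 1.36 for Yipf6 (0.71 against -0.66). In edgeR's test of day by line the adjusted p was 0.0617, 0.0617 and 0.0708.

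Within the 5 pairs G6 stood apart for 2 genes. For Mcm5 its difference of -1.39, where the next was -0.41, took 0.886 of the range, and for Cdkn1a its difference of -1.49, where the next was 0.48, took 0.806. The limit for this flag was 0.71 of the range, which a gap passes by chance in about 1 group in 20. Many genes and lists were screened.

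For 12 X-linked genes the day difference of the Xi ratio differed between the lines in limma, with adjusted p from 0.0116 to 0.0438. The difference of iXist-ChrX-Cast minus iXist-ChrX-Dom was -0.433 for Wdr45, -0.384 for Plp2, -0.369 for Rbm3, -0.360 for Ccdc120, -0.357 for Ccdc22 and -0.329 for Tfe3. It was -0.298 for Xk, -0.282 for Porcn, -0.244 for Ppp1r3f, -0.236 for Clcn5, -0.204 for Ebp and -0.0114 for Mtm1, the last from at most 3 Xi fragments a library.

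In the library of A3 at day 52, which no comparison used, Gfap was at 12.0 RPM and Aqp4 at 14.2 RPM, where the highest values in the libraries of days 15 and 35 were 0.168 and 0.564 RPM.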

How the results depend on the processing

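Each population and day is 1 library, the clones change replicate number between the days, and the 5 pairs come from 2 lines. The main result, 1 gene called by edgeR, changed with most settings. DESeq2 called 702 genes, the fit without the population as a block called 6, day 35 against day 21 gave 2, the 2 WT populations alone gave 14 and the day averaged over the lines 6. The count was 0 for day 21 against day 15, with run R1 of G6 alone, with D5 and G6 summed, in the 3 iXist-ChrX-Cast populations alone, in the 2 iXist-ChrX-Dom populations alone and in the 3 knockout clones alone, and 0 to 1 when 1 population was left out. Mgll itself was called under 9 of 20 alternatives, with log2 differences from 1.32 to 3.35, and had an adjusted p of 0.102 without iXist-ChrX-Dom WT, 0.0387 without A3, 0.105 without iXist-ChrX-Cast WT, 0.124 without D5 and 0.0805 without G6. The cause of these changes was not tested.

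The replicate numbers of the labels do not pair the days, and the pairing used is that of the population. Without that replicate block the list medians were -1.77 (proneural), -0.66 (mature neuronal), 0.19 (astroglial), -0.34 (S phase) and -0.39 (G2 and mitosis), and besides the 6 genes no call over all populations changed.

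In the test of day by genotype DESeq2 called 3 genes. In that of day by line DESeq2 called 3264, no filter on low counts gave 4, R1 alone 3, day 21 against day 15 gave 2411 and the knockout clones alone 1032. For ratios in iXist-ChrX-Cast edgeR on Xi and Xa counts called 15. The 12 ratios called by day and line became 0 to 34 when 1 population was left out, 5 for day 35 against day 21, and 0 with D5 and G6 summed, for day 21 against day 15 and in the knockout clones alone.

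The difference of the median ratio was -0.00234 to 0.00341 when 1 population was left out, the lowest without A3 and the highest without G6. It was -0.00289 for day 21 against day 15, -0.00320 in iXist-ChrX-Cast alone and -0.00143 in the WT populations alone. The mean difference in genes over a ratio of 0.1 was -8.6 for day 21 against day 15, and the difference in the median of the first 10 Mb of iXist-ChrX-Dom was then 0.0263, beside 0.238 for day 35 against day 15. The proneural median was -0.71 for day 35 against day 21 and -3.07 in iXist-ChrX-Dom alone, the mature neuronal median -0.43 for day 35 against day 21 and -0.31 for day 21 against day 15, and the astroglial median 0.77 in iXist-ChrX-Cast alone. Of 919 alternatives of single genes and lists 86 had the other sign. Settings restricted to lines, genotypes or the line-averaged day were chosen after seeing the data.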

Other observations

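Outside the X chromosome the Cast share of allelic fragments was summed by 10 Mb to see where populations changed in allelic balance between the days. It moved by more than 0.1 in 11 combinations of stretch and population. On chromosome 1 from 0 to 10 Mb it went from 0.491 to 0.592 in D5 and from 0.469 to 0.656 in G6, and on chromosome 6 from 70 to 80 Mb from 0.476 to 0.605 in D5 and from 0.456 to 0.635 in G6. In iXist-ChrX-Dom WT it went from 0.468 to 0.568 and from 0.471 to 0.615 in neighbouring stretches of chromosome 6, from 120 to 140 Mb, and from 0.471 to 0.323 on chromosome 5 from 150 Mb. At the end of chromosome 17, from 90 Mb, it went from 0.483 to 0.362 in A3, from 0.479 to 0.649 in D5 and from 0.365 to 0.533 in iXist-ChrX-Cast WT. The last was chromosome 14 from 110 to 120 Mb in iXist-ChrX-Cast WT, from 0.422 to 0.528. These stretches hold 222 of the genes tested, and what lies behind the shifts was not tested.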
